A study of Mus musculus with 48 samples.

Results

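Genes of hepatic de novo lipogenesis were followed through the liver RNA-seq of FCG mice, namely Srebf1, Mlxipl, Pklr, Acly, Acaca, Fasn, Elovl6, Scd1, Me1 and Thrsp. The 10 were chosen by name from the 55414 genes of the count table, with earlier results of these data known. All 10 passed the filter on low counts that left 15414 genes for testing. FCG mice separate sex chromosomes from gonads, because Sry was deleted from the Y chromosome (labelled XY-) and an autosomal Sry transgene (labelled SryTg) gives testes to its carriers. The 48 livers fell into 8 groups of 6 mice: XX and XY- mice without the transgene, which have ovaries (XX Ov, XY Ov), and XX;SryTg and XY-;SryTg mice, which have testes (XX Te, XY Te), each with intact gonads (Intact) or after gonadectomy (GDX). All mice were C57BL/6, were started on a high-fat diet (HFD, 60% of calories from fat) at 15 to 17 weeks of age and carried the same Y deletion wherever a Y was present. GDX was performed at 75 days of age, and the labels give 11 weeks of HFD for Intact and 15 weeks for GDX mice. With the same range of starting ages, GDX mice were thus also older at the end of the diet. The effects of gonadectomy, of time on the diet, of age and of cohort cannot be told apart here. The study's own text names an intact gonad cohort and a GDX cohort. It gives other diet durations for both, also longer after GDX. Each mouse gave 1 library and is named by its group and a number from 1 to 6, which links no mouse to a mouse of another group.

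De novo lipogenesis makes fatty acids from carbohydrate carbon. Pyruvate kinase feeds pyruvate to the mitochondria, citrate leaves them and is cleaved to acetyl-CoA, acetyl-CoA is carboxylated to malonyl-CoA, and fatty acid synthase builds palmitate, which is then elongated and desaturated. In liver the pathway is driven by insulin through SREBP1c and by glucose through ChREBP, and it is lowered by fasting and by dietary fat. The mice of this study were fasted for some hours before the livers were taken.

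Each library held between 13071874 and 20045141 reads on genes. The libraries of Intact mice had 3.47% to 6.20% of their reads outside annotated genes and those of GDX mice 8.52% to 11.3%, without overlap, so library make-up moved with gonadal status as well. Its part in the results was not tested. Xist and 4 Y-linked genes separated the XX from the XY mice without overlap. The 6 hepatocyte markers, led by Alb, summed to between 64481 and 143633 CPM (counts scaled to a common library size), whereas the adipocyte markers Adipoq, Lep, Plin1 and Retn had at most 3 reads in any mouse. The other adipocyte markers had more, with 0 to 423 reads for Cfd and 61 to 331 for Lipe. CPM below are scaled by TMM factors, the library scaling of edgeR. In bulk liver, fewer cells of a type and less RNA per cell cannot be told apart. No label says that the mice came from separate litters or cages, and p-values measure only the spread between these mice.

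Corrected for transcript length, the 10 genes spanned a wide range of levels over the 48 mice. Scd1, the stearoyl-CoA desaturase, had the highest level at 1455 ± 799 CPM per kb of exon (SD, n = 48), followed by Thrsp at 248 ± 117. Pklr (72.0 ± 28.3), Mlxipl (51.9 ± 10.3), Me1 (50.4 ± 23.1), Acly (39.8 ± 14.2), Fasn (30.9 ± 17.1), Srebf1 (29.1 ± 8.70) and Elovl6 (23.8 ± 7.31) followed in CPM per kb, and Acaca, the cytosolic acetyl-CoA carboxylase, was lowest at 8.57 ± 3.45. The lowest count of any member in any mouse was 417 reads, for Acaca, so counting error was small beside the differences between mice. In the plot of CPM by mouse, the median of each GDX group was above that of its Intact counterpart for Srebf1, Mlxipl, Pklr, Acly, Acaca, Fasn and Elovl6, and below it for Scd1, Me1 and Thrsp. Over the 8 group means, each gene's highest lay between 1.48 times (Mlxipl) and 3.52 times (Me1) its lowest. Fasn was highest in XX Ov GDX mice (519 ± 176 CPM, SD, n = 6) and lowest in XY Ov Intact mice (150 ± 63.1 CPM). Me1 was highest in XX Te Intact mice (298 ± 62.4 CPM) and lowest in XY Te GDX mice (84.7 ± 24.8 CPM). Scd1 had the same highest and lowest groups as Me1, at 12444 ± 2819 and 4013 ± 3358 CPM. Of the 7 pairs of neighbours in each order, at most 1 per gene lay apart by more than their pooled SD, so most neighbours did not differ beyond their spread.

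**Figure D1:**
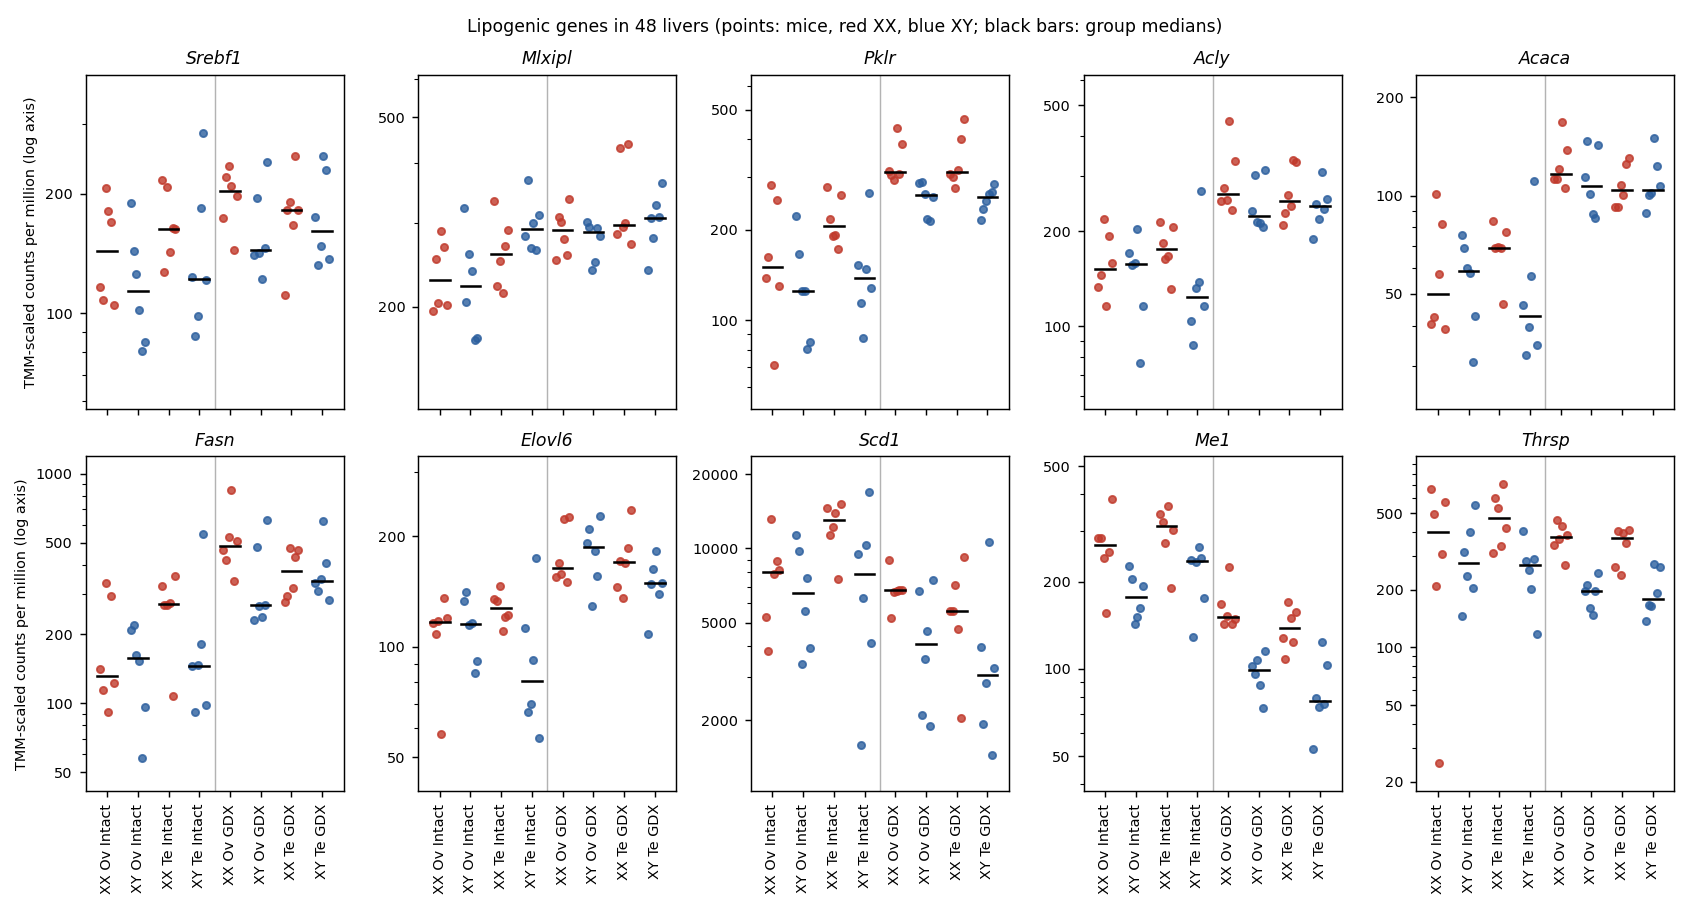
CPM (TMM-scaled, log axis) of the 10 lipogenic genes in each of the 8 groups on the horizontal axis, with a point for each of the 6 mice of a group (red XX, blue XY), a bar for the group median and a grey line between Intact and GDX groups. The medians of Srebf1, Mlxipl, Pklr, Acly, Acaca, Fasn and Elovl6 were higher in each GDX group than in its Intact counterpart, those of Scd1, Me1 and Thrsp were lower, and Thrsp had a single value of 25.0 CPM in XX Ov Intact mouse 4.

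Sequences around annotated start sites of the 5 enzymes that rose after ovariectomy (below), and of Me1 and Thrsp, which did not rise, are shown. They let short motifs be compared in these windows. RefSeq start-site windows (GRCm38.p6, 250 bases before to 50 after the start) matched 9 of the 10 genes by symbol, in 14 windows, Scd1 being named only. Where a gene had more than 1 window the one with more motif matches is given. Capitals mark matches, on either strand, to the CCAAT box of NF-Y (CCAAT), the E-box of USF and ChREBP (CACGTG), an SRE-like element (TCACNCCAC), the GC box of Sp1 (GGGCGG) and the TATA box (TATAAA). No motif of these contains another, and the E-box reads the same on both strands.
Fasn (chr11:120824498-120824797, minus strand): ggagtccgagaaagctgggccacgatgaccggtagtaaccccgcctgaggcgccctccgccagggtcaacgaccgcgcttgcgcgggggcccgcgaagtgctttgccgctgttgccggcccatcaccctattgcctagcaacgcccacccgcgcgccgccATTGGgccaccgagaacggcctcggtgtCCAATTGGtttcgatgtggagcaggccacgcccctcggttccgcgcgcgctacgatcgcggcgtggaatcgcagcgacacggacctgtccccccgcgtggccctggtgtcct
Acaca (chr11:84195188-84195487, plus strand): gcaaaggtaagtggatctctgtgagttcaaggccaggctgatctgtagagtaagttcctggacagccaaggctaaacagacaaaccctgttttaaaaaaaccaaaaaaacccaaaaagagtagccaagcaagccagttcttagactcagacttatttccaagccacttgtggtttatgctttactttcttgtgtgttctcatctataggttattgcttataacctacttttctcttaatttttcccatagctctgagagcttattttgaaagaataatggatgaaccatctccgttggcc
Acly (chr11:100527951-100528250, minus strand): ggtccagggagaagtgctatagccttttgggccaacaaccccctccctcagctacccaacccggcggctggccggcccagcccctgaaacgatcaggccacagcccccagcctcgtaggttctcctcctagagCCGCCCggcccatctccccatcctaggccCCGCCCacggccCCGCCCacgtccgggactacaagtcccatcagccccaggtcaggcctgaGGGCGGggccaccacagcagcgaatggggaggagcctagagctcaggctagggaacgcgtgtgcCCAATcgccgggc
Elovl6 (chr3:129532136-129532435, plus strand): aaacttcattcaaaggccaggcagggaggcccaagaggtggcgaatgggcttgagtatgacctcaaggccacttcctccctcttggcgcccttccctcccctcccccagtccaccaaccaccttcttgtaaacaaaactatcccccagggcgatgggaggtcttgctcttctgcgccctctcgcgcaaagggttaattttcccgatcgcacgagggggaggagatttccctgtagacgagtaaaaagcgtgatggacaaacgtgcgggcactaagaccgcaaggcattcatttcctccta
Pklr (chr3:89136373-89136672, plus strand): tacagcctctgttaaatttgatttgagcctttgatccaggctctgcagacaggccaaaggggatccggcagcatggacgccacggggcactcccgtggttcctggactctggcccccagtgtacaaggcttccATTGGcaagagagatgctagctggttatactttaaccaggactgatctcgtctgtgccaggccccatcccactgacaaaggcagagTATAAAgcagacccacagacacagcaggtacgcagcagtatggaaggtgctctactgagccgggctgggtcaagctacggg
Me1 (chr9:86695865-86696164, minus strand): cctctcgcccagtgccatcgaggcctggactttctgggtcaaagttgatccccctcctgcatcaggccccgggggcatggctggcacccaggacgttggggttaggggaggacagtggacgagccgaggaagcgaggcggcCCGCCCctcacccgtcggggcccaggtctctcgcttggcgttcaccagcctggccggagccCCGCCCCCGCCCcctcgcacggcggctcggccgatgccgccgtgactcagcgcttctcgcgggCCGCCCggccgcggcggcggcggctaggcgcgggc
Thrsp (chr7:97417501-97417800, minus strand): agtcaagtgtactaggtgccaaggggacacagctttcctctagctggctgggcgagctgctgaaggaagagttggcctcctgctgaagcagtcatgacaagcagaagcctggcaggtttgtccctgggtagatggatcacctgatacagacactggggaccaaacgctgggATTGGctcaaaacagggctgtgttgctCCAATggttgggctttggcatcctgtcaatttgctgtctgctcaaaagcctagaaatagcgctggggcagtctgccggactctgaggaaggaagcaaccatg
The CCAAT box was found in 8 of the 14 windows, against 37.4% of all 32851 RefSeq windows of this length. These 8 belonged to 7 of the 9 genes (Pklr, Mlxipl, Thrsp, Me1, Srebf1, Acly and Fasn). Fasn carried 3 CCAAT matches, of which 2 overlapped on opposite strands, starting at -62 and -59 from the start site, and the third started at -90. Thrsp carried 2, starting at -79 and -52. The CCAAT match of Me1 was in its other window. GC boxes occurred in 5 of the 14 windows, those of 4 genes (Mlxipl, Me1, Srebf1 and Acly), against 35.7% of all windows. The TATA box occurred in 1 window, of Pklr, against 13.6% of all windows. An E-box was found only in Mlxipl (7.15% of all windows), as was the SRE-like element (1.24%). The only window matched for Acaca, and the only one for Elovl6, held none of the 5 motifs. Any other start site of these genes was not examined, so their promoters may hold such motifs elsewhere. These matches are letters in a window and were not measured as sites in these livers.

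The ovary-bearing mice were compared first, to ask how the pathway differed after removal of the ovaries. Averaged over XX and XY, 7 of the 10 genes were higher in Ov GDX than in Ov Intact mice and 1 was lower, against 36% of all tested genes that were higher and 33.4% that were lower (edgeR quasi-likelihood test, Benjamini-Hochberg adjusted p under 0.05 over 15414 genes). The median log2 difference of the 10 was 0.57, and that of all tested genes 0.060. Since the members were chosen with earlier results of these data known, such counts and medians beside all genes are descriptions. Higher calls made up 51.9% of all calls in this comparison with TMM scaling and 66.1% with library totals, which shifted the median of all genes to 0.27. All 8 calls of members kept their direction and stayed called with library totals, and all 10 genes kept their direction.

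Fatty acid synthase showed the largest difference. Fasn ranged from 91.5 to 336 CPM in XX Ov Intact mice with a median of 131, and from 341 to 852 CPM in XX Ov GDX mice with a median of 486. In XY mice, Fasn ranged from 57.8 to 220 CPM (median 158) in Ov Intact and from 230 to 627 CPM (median 267) in Ov GDX. The groups did not overlap within either chromosome complement. The fitted log2 difference was 1.37 (SE 0.26, adjusted p = 1.21e-05), at 1.51 in XX and 1.23 in XY mice. With 1 surrogate variable in the model, an unlabelled source of variation estimated from the counts, it was 0.82 over both and 0.63 in XY mice, where the call was lost (adjusted p = 0.0749).

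Acaca, which makes the malonyl-CoA used by fatty acid synthase, ranged from 39.1 to 101 CPM (median 50.0) in XX Ov Intact and from 105 to 168 CPM (median 116) in XX Ov GDX mice. In XY mice it ranged from 31.0 to 75.8 CPM (median 58.9) in Ov Intact and from 85.3 to 147 CPM (median 107) in Ov GDX. All 12 Ov GDX mice thus exceeded the Ov Intact mice of their own complement, with a log2 difference of 1.04 (SE 0.17, adjusted p = 8.70e-07) that fell to 0.65 with the surrogate variable. Acly, the ATP citrate lyase that supplies cytosolic acetyl-CoA, ranged from 116 to 218 CPM (median 152) in XX Ov Intact and from 234 to 448 CPM (median 262) in XX Ov GDX mice. In XY mice its range was 76.3 to 203 CPM (median 158) in Ov Intact and 207 to 313 CPM (median 223) in Ov GDX. Again no value of one status reached those of the other within a complement, and the log2 difference was 0.82 (SE 0.15, adjusted p = 6.18e-06).

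Pklr, the liver pyruvate kinase at the entry to the pathway, ranged from 71.0 to 282 CPM (median 150) in XX Ov Intact and from 292 to 434 CPM (median 310) in XX Ov GDX mice. In XY mice the ranges were 80.3 to 223 CPM (median 125) in Ov Intact and 213 to 289 CPM (median 260) in Ov GDX, and there they overlapped. Its log2 difference was 0.95 (SE 0.17, adjusted p = 3.14e-06). Elovl6, which elongates palmitate to stearate, ranged from 57.8 to 136 CPM (median 117) in XX Ov Intact and from 150 to 226 CPM (median 164) in XX Ov GDX mice. In XY mice it ranged from 84.6 to 141 CPM (median 115) in Ov Intact and from 129 to 227 CPM (median 187) in Ov GDX, and only the XX groups stood fully apart. The log2 difference was 0.71 (SE 0.14, adjusted p = 2.02e-05).

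The genes of both transcription factors rose by smaller amounts. Srebf1, which encodes SREBP1, went from 80.2 to 207 CPM (median 121) over the 12 Ov Intact mice to between 122 and 240 CPM (median 185) over the 12 Ov GDX mice, and the ranges overlapped widely. Its log2 difference was 0.43 (SE 0.17, adjusted p = 0.0211), which was lost without XY Ov GDX mouse 6 (0.36, adjusted p = 0.0555) and with the surrogate variable (0.10, adjusted p = 0.561). Mlxipl, which encodes ChREBP, ranged from 171 to 323 CPM (median 222) in Ov Intact and from 239 to 337 CPM (median 288) in Ov GDX mice. Its log2 difference was 0.29 (SE 0.099, adjusted p = 0.00948), larger at 0.48 with library totals and not called with the surrogate variable (0.24, adjusted p = 0.0558).

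The 3 remaining genes did not share this direction. Me1, the cytosolic malic enzyme that yields NADPH for fatty acid synthesis, fell after ovariectomy. It ranged from 155 to 386 CPM (median 267) in XX Ov Intact and from 142 to 224 CPM (median 151) in XX Ov GDX mice, and from 142 to 226 CPM (median 177) in XY Ov Intact and from 73.2 to 115 CPM (median 99.1) in XY Ov GDX mice. Only the XY groups stood apart, and the log2 difference was -0.80 (SE 0.13, adjusted p = 1.05e-06). Scd1 ranged from 3396 to 13105 CPM (median 7718) in the 12 Ov Intact and from 1903 to 8929 CPM (median 6689) in the 12 Ov GDX mice, a log2 difference of -0.43 (95% interval -1.02 to 0.16, adjusted p = 0.189). With the surrogate variable the value for Scd1 was -0.82 and passed the test (adjusted p = 0.0228). Thrsp, which encodes the thyroid hormone-responsive Spot 14 protein, ranged from 25.0 to 671 CPM (median 309) in Ov Intact and from 148 to 463 CPM (median 257) in Ov GDX mice, with a log2 difference of -0.34 (interval -0.85 to 0.16, adjusted p = 0.222). Without XX Ov Intact mouse 4, the mouse at 25.0 CPM, the Thrsp difference was -0.47 (adjusted p = 0.0283).

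Taken by chromosome complement, ovariectomy gave the same calls in XX and XY mice in the main fit (48 mice, TMM scaling). These were 5 genes higher (Fasn, Acaca, Acly, Elovl6 and Pklr) and Me1 lower in each. With library totals Mlxipl was also called in XX (adjusted p = 0.0160), and Mlxipl and Srebf1 in XY mice (0.00612 and 0.0289), all higher. With the compared mice only Thrsp was also called in XY mice, as lower (-0.69, adjusted p = 0.0370). Of all tested genes, 26.5% were higher and 28.6% lower in XX, and 30.3% were higher and 29.2% lower in XY mice. The higher share of all calls went from 48.1% to 61.3% in XX and from 50.9% to 68.0% in XY mice with library totals. The 5 genes that did not overlap in XX (19.6% of all tested genes did not overlap there) were the same 5 that were called higher, and 4 genes did not overlap in XY (34% of all tested genes), namely Fasn, Acaca, Acly and Me1. The difference between the ovariectomy effects of XX and XY mice was called for 0 of the 10 genes and for 0% of all genes with edgeR, and no member had an unadjusted p under 0.05, whereas 637 of all genes did. The DESeq2 Wald test called 8 of all genes and none of the members. The intervals of this difference were wide, from -0.75 to 1.30 for Fasn and from -0.36 to 1.68 for Thrsp on the log2 scale, so a difference of moderate size was not detectable.

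Markers of other cell types were called after ovariectomy too, beside 69.4% of all tested genes (36% higher and 33.4% lower). Of the 5 stellate cell markers 3 were higher and 1 lower in Ov GDX mice, of the 5 cholangiocyte markers 3 were higher, and of the 5 neutrophil and 6 Kupffer cell markers 4 and 3 were lower. Of the 5 lymphocyte markers 2 were lower, of the 5 endothelial markers 1 rose and 1 fell, and of the 2 adipocyte markers tested 1 rose. The summed stellate cell markers ranged from 271 to 493 CPM in Ov Intact and from 292 to 665 CPM in Ov GDX mice, and the summed neutrophil markers from 1.94 to 834 CPM and from 0.715 to 58.0 CPM. The hepatocyte markers split into 2 higher and 2 lower of 6, and their sum ranged from 73181 to 143633 CPM in Ov Intact and from 78069 to 116777 CPM in Ov GDX mice. The part of these cell types in the lipogenic differences was not tested.

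The same comparison was made in testis-bearing mice. After castration 5 of the 10 genes were higher and 2 were lower, against 33.4% and 29.9% of all tested genes, and higher calls made up 52.7% of all calls with TMM and 69.5% with library totals, which moved the median of all genes from 0.069 to 0.27. The median of the 10 differences was 0.37. The 5 that rose were Acaca (log2 difference 0.85), Fasn (0.72), Pklr (0.71), Acly (0.68) and Elovl6 (0.54), the 5 genes that had risen after ovariectomy in each complement. Fasn ranged from 91.9 to 546 CPM (median 224) in the 12 Te Intact and from 277 to 622 CPM (median 341) in the 12 Te GDX mice, and its ranges overlapped (SE 0.25, adjusted p = 0.0138). Acaca ranged from 32.5 to 111 CPM (median 62.9) in Te Intact and from 88.5 to 150 CPM (median 104) in Te GDX mice (SE 0.17, adjusted p = 3.02e-05).

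Scd1 and Me1 fell after castration. Scd1 ranged from 1586 to 16881 CPM (median 10865) in Te Intact and from 1445 to 10609 CPM (median 4343) in Te GDX mice, a log2 difference of -1.07 (SE 0.30, adjusted p = 0.00180). Me1 ranged from 128 to 366 CPM (median 252) in Te Intact and from 52.9 to 170 CPM (median 116) in Te GDX mice, a log2 difference of -1.21 (SE 0.13, adjusted p = 4.73e-10). Srebf1 (0.17), Mlxipl (0.19) and Thrsp (-0.44) did not pass the test. Without XX Ov Intact mouse 4, which is not in this comparison, the Thrsp difference stayed at -0.44 and passed (adjusted p = 0.0399). It also passed with the compared mice only (-0.43, adjusted p = 0.0321). That of Mlxipl passed without XX Te Intact mouse 1 (0.23, adjusted p = 0.0423) and with library totals (0.38, adjusted p = 0.00312). It did so too with at least 10 counts in every mouse (0.23, adjusted p = 0.0325). Of the marker lists, 3 of 5 stellate cell markers were higher after castration and 2 of 5 neutrophil markers lower, beside 33.4% and 29.9% of all tested genes. Endothelial cells and cholangiocytes each had 2 higher and 1 lower of 5, and hepatocytes 2 higher and 1 lower of 6. Kupffer cells had 1 of 6 lower, lymphocytes 1 of 5 higher and adipocytes 1 of 2 tested lower, with a median log2 difference of -1.54 over the 2, and the part of these cells was not tested.

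No gene of the 10 differed between ovariectomy and castration beyond the spread (0 called with edgeR and with DESeq2, 1 with an unadjusted p under 0.05, against 5.6% of all tested genes called). That 1 was Me1, which fell by less after ovariectomy than after castration (difference of log2 effects 0.42, SE 0.18, adjusted p = 0.165). The corresponding interval for Fasn was -0.072 to 1.38 and for Scd1 -0.19 to 1.48. The plot of fitted differences sets the 4 main comparisons side by side.

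**Figure D2:**
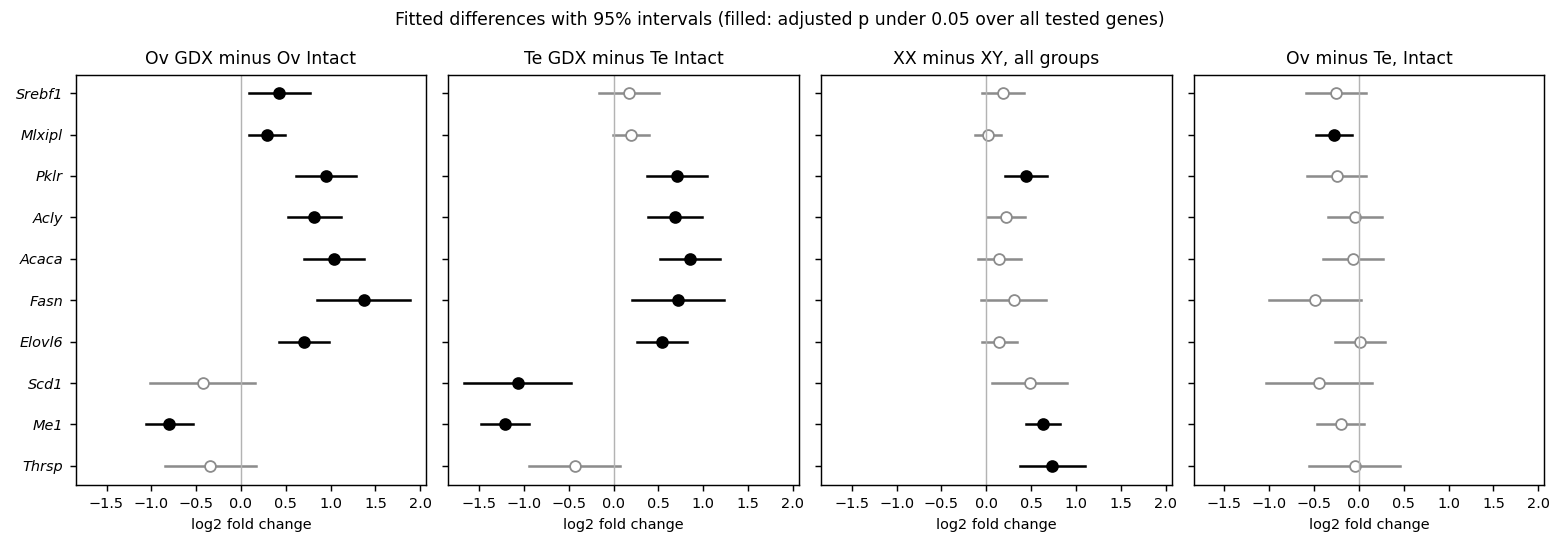
Log2 fold change (horizontal axis) of each of the 10 genes (vertical axis) with its 95% interval in 4 comparisons, from left to right Ov GDX minus Ov Intact, Te GDX minus Te Intact, XX minus XY over all groups and Ov minus Te in Intact mice. Filled points had an adjusted p under 0.05 over all tested genes, and these were 8, 7, 3 and 1 of the 10 genes.

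Mice that had carried ovaries and mice that had carried testes were compared after gonadectomy, in the same libraries as above. Of the 10 genes 0 differed with edgeR, 0 had an unadjusted p under 0.05 and DESeq2 called 0, against 0.0908% of all tested genes called. The narrowest interval was that of Mlxipl (-0.38 to 0.021 on the log2 scale) and the widest that of Scd1 (-0.39 to 0.78). In Intact mice, the comparison of ovaries with testes called Mlxipl alone, lower in Ov than in Te mice, against 11.3% of all tested genes lower and 14.1% higher. Mlxipl ranged from 171 to 323 CPM (median 222) in Ov Intact and from 214 to 369 CPM (median 275) in Te Intact mice, a log2 difference of -0.28 (SE 0.099, adjusted p = 0.0362) with overlapping ranges. The call was lost without any 1 of 6 mice, with adjusted p-values from 0.0551 (without XY Ov Intact mouse 6) to 0.0842 (without XX Te Intact mouse 1). The other 4 were XX Ov Intact mouse 1, XY Ov Intact mouse 5, XX Te Intact mouse 6 and XY Te Intact mouse 2. It was also lost with library totals (adjusted p = 0.106), where the higher share of all calls went from 55.6% to 68.1%. The median difference of the 10 genes was -0.23, that of all genes 0.038, and the intervals of the other 9 genes included 0. For Fasn the difference was -0.49 with an upper bound of 0.026, and it was -0.18 (adjusted p = 0.583) without XY Te Intact mouse 5 and -0.16 (adjusted p = 0.582) with the surrogate variable. Kupffer cell and lymphocyte markers moved with this comparison (3 of 6 and 3 of 5 higher in Ov mice), as did both tested adipocyte markers (lower). Hepatocytes (1 of 6) and cholangiocytes (1 of 5) had a marker lower, stellate and endothelial cells each 1 of 5 higher, and no neutrophil marker differed by the test, and the part of these cells was not tested.

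The sex chromosomes were compared over all 8 groups. XX mice had higher Me1, Thrsp and Pklr than XY mice, 3 of the 10 genes against 21.9% of all tested genes that were higher in XX, and no member was lower, against 14.8% of all genes. The median of the 10 differences was 0.26, and that of all genes 0.052. All 10 fitted differences were above 0, from 0.017 (Mlxipl) to 0.74 (Thrsp). The split of all calls depended on the scaling, with 59.8% higher in XX under TMM and 28.1% under library totals, where Me1 and Thrsp stayed called and Pklr did not (0.33, adjusted p = 0.0504).

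Me1 showed the same order of chromosomes in every arm. The XX medians were 267 CPM in Ov Intact, 310 in Te Intact, 151 in Ov GDX and 139 in Te GDX mice, and the XY medians 177, 235, 99.1 and 77.6 CPM in the same order. In Ov GDX mice the XX values (142 to 224 CPM) all exceeded the XY values (73.2 to 115 CPM). The log2 difference over all groups was 0.63 (SE 0.092, adjusted p = 3.08e-07). By arm it was 0.57 in Ov Intact (adjusted p = 0.0457), 0.48 in Te Intact (0.197), 0.75 in Ov GDX (0.00250) and 0.72 in Te GDX mice (0.00349). The Ov Intact value stood close to the threshold, and the call was lost with 5 of the 8 other settings and without any 1 of 14 mice, with adjusted p-values up to 0.176 without XX Ov Intact mouse 6 (0.41).

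Thrsp had XX medians of 400 CPM in Ov Intact, 474 in Te Intact, 375 in Ov GDX and 371 in Te GDX mice, beside XY medians of 274, 268, 196 and 179 CPM. The log2 difference over all groups was 0.74 (SE 0.18, adjusted p = 9.31e-04). In Ov GDX mice the XX values (270 to 463 CPM) lay above all XY values (148 to 244 CPM), with a log2 difference of 0.96 that missed the threshold when all 48 mice shared 1 estimate of the spread (adjusted p = 0.0545). A fit of these 12 mice alone gave 0.90 (adjusted p = 1.78e-04), and the fit without XX Ov Intact mouse 4 gave 0.96 (adjusted p = 0.00755). The difference also passed with the surrogate variable (0.89, adjusted p = 0.0334). Pklr, with a log2 difference of 0.44 (SE 0.12, adjusted p = 0.00202), had higher medians in XX than in XY mice in all 4 arms, at 150 against 125 CPM in Ov Intact and 310 against 260 CPM in Ov GDX mice.

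Within single arms, Me1 was the only member called in the main fit. It was called in Ov Intact (7.79% of all tested genes), Ov GDX (19.1%) and Te GDX mice (19.4%). The higher share of all calls in these arms went from 25.7% to 5.61%, from 45.5% to 12.1% and from 43.6% to 12.2% with library totals, while Me1 kept its direction in each. The main fit gave all groups a common estimate of the spread, which was larger in Intact than in GDX mice (below). With the compared mice only, Thrsp (0.90, adjusted p = 1.78e-04) and Pklr (0.35, adjusted p = 0.0190) were also called in Ov GDX mice. In Te GDX mice such a fit added Thrsp (0.74, adjusted p = 0.00964) and Pklr (0.40, adjusted p = 0.0247). In Ov Intact mice it did not call Me1 (0.51, adjusted p = 0.259). In Te Intact mice 0 members were called with edgeR and with DESeq2, against 2.1% of all genes (30.9% of these calls higher in XX, and 45.5% with library totals), and 4 had an unadjusted p under 0.05. The 4 were Elovl6, Me1, Thrsp and Pklr, with log2 differences from 0.42 to 0.91. Without XY Te Intact mouse 5, which had the group's highest value for 7 of the 10 genes, Elovl6 (0.69, adjusted p = 0.0261) and Pklr (0.79, adjusted p = 0.0466) passed. Leaving out this mouse also raised the number of members called over all groups from 3 to 7, with Fasn (0.46), Acly (0.29), Elovl6 (0.21) and Scd1 (0.57) added. In XX against XY mice, 0 members failed to overlap in Ov Intact mice (4.28% of all tested genes), and 3 did in Ov GDX mice (Me1, Thrsp and Pklr, with 19.1% of all tested genes).

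Blood and resident immune cell markers moved with the chromosomes, beside 21.9% of all tested genes higher and 14.8% lower in XX mice. Of 6 Kupffer cell markers 5, of 5 neutrophil markers 5 and of 5 lymphocyte markers 4 were lower in XX mice. The summed Kupffer cell markers ranged from 133 to 706 CPM (median 261) in XX and from 279 to 1004 CPM (median 621) in XY mice, and the summed neutrophil markers from 0.157 to 30.1 CPM in XX and from 1.20 to 834 CPM in XY mice. The hepatocyte markers summed to 64481 to 143633 CPM (median 104220) in XX and 73181 to 141263 CPM (median 97700) in XY mice, with 1 of 6 higher in XX. Of the other lists, cholangiocytes (2 of 5) and stellate cells (1 of 5) had markers higher, endothelial cells had 1 of 5 lower, and neither adipocyte marker differed by the test. Their part in the chromosomal differences of Me1, Thrsp and Pklr was not tested.

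Other genes around the pathway were followed in 3 lists, whose counts stand beside the shares of all tested genes given above, from 36% higher and 33.4% lower after ovariectomy to 14.1% and 11.3% in the gonadal comparison. The 5 higher and 6 lower of 17 regulators after castration lay near the shares of all genes (33.4% and 29.9%). Of 17 regulators, 9 were higher and 6 lower after ovariectomy, and the 2 largest called differences were those of Mlx (-1.19, adjusted p = 1.97e-09), the dimerization partner of ChREBP, and Usf2 (-0.95, adjusted p = 1.65e-10), an E-box binding factor. In Te GDX mice 5 of them were higher and 6 lower than in Te Intact mice. Insig2 (-1.41), which retains SREBP in the endoplasmic reticulum, and Mlx (-0.94) led that comparison. XX mice had 4 higher and 4 lower, beside 21.9% and 14.8% of all tested genes, led by Insig2 (0.76) and by Nr1h3 (-0.52), which encodes LXRα. Both genes also led the gonadal comparison, in which 2 regulators were higher and 2 lower in Ov mice (Insig2 -0.72, Nr1h3 0.53).

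Of 16 genes of fatty acid supply and use, 9 were higher and 3 lower after ovariectomy, led by Acacb (1.18), the mitochondrial acetyl-CoA carboxylase, and Lpin1 (0.73), a phosphatidate phosphatase. After castration 7 were higher and 4 lower, led by Pnpla3 (1.73, with a median of 14.5 reads per mouse) and Acacb (1.03). In XX mice 11 were higher and 1 lower, with Elovl5 (0.74) and Fads2 (0.74), which serve polyunsaturated fatty acid synthesis, in front. In the gonadal comparison 1 was higher and 2 lower in Ov mice, led by Pnpla3 (1.73) and Gpam (-0.66). Of 15 genes of carbohydrate and NADPH supply, 7 were higher and 2 lower after ovariectomy, among them the liver phosphofructokinase Pfkl (0.89) and the fructokinase Khk (-0.85). After castration 7 of these genes were higher and 4 lower (G6pdx 0.77, Pfkl 0.63), and XX mice had 7 higher and 1 lower. That 1 was G6pdx, the X-linked first enzyme of the pentose phosphate pathway (-1.17). In the gonadal comparison none was higher and 2 were lower in Ov mice, among them Pfkfb1 (-0.33). The median log2 difference after ovariectomy was 0.15 for the regulators, 0.38 for fatty acid supply and use and 0.32 for carbohydrate and NADPH supply, beside 0.060 for all genes and 0.57 for the 10 members. After castration the last 2 lists had medians of 0.20 and 0.26, and in XX against XY mice 0.32 and 0.17. With library totals 1, 7 and 4 genes of the 3 lists were higher in XX mice and 5, 1 and 1 lower. All the genes named from these lists kept their direction and their call under both other scalings.

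Co-variation between mice of a group was examined after each gene's log2 CPM had been centred on its group mean, so that no difference between groups entered. Of the 45 pairs of genes, 39 had a positive Pearson r and 29 passed a permutation test within groups (100000 resamples, Benjamini-Hochberg adjusted over the 45 pairs), all 29 positive. The r of several passing pairs was common among all tested genes. For Acaca with Me1, 26.1% of them had an r at least as high with Acaca. With Srebf1, 20.1% reached the r of Scd1 and 15.9% that of Elovl6, whereas 0% reached that of Acaca with Fasn. By Spearman's rho 28 passed. The median r was 0.41, at 0.52 in the 24 Intact and 0.47 in the 24 GDX mice, and 0.41 in the 12 Ov Intact mice.

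The closest pair was Fasn and Acaca, with r = 0.91 and rho = 0.87 over 48 mice (permutation p = 1e-05 for both, the smallest that 100000 resamples can give, adjusted 3.75e-05 and 4.09e-05). It was 0.88 without the 2 mice farthest from the Fasn median, and 0.93 in Intact, 0.86 in GDX and 0.90 in Ov Intact mice. None of the other tested genes had an r with Fasn as high as that of Acaca. Fasn with Acly (r = 0.88, rho = 0.83) and Acaca with Acly (r = 0.86, rho = 0.82) followed, at 0.84 and 0.82 without the 2 farthest mice. Among Fasn, Acaca, Acly, Elovl6 and Pklr, the 10 values of r lay between 0.66 and 0.91. Srebf1 went with Acaca (r = 0.81, rho = 0.78), Fasn (0.73 and 0.72) and Acly (0.63 and 0.55), and only 0.0389% of tested genes had an r with Srebf1 as high as that of Acaca. Without the 2 mice farthest from the Srebf1 median these 3 values of r were 0.75, 0.66 and 0.54. The 5 pairs of Acly with Fasn and Acaca and of Srebf1 with Acaca, Fasn and Acly had permutation p-values from 1e-05 to 0.00037 (adjusted 3.75e-05 to 0.00128).

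**Figure D3:**
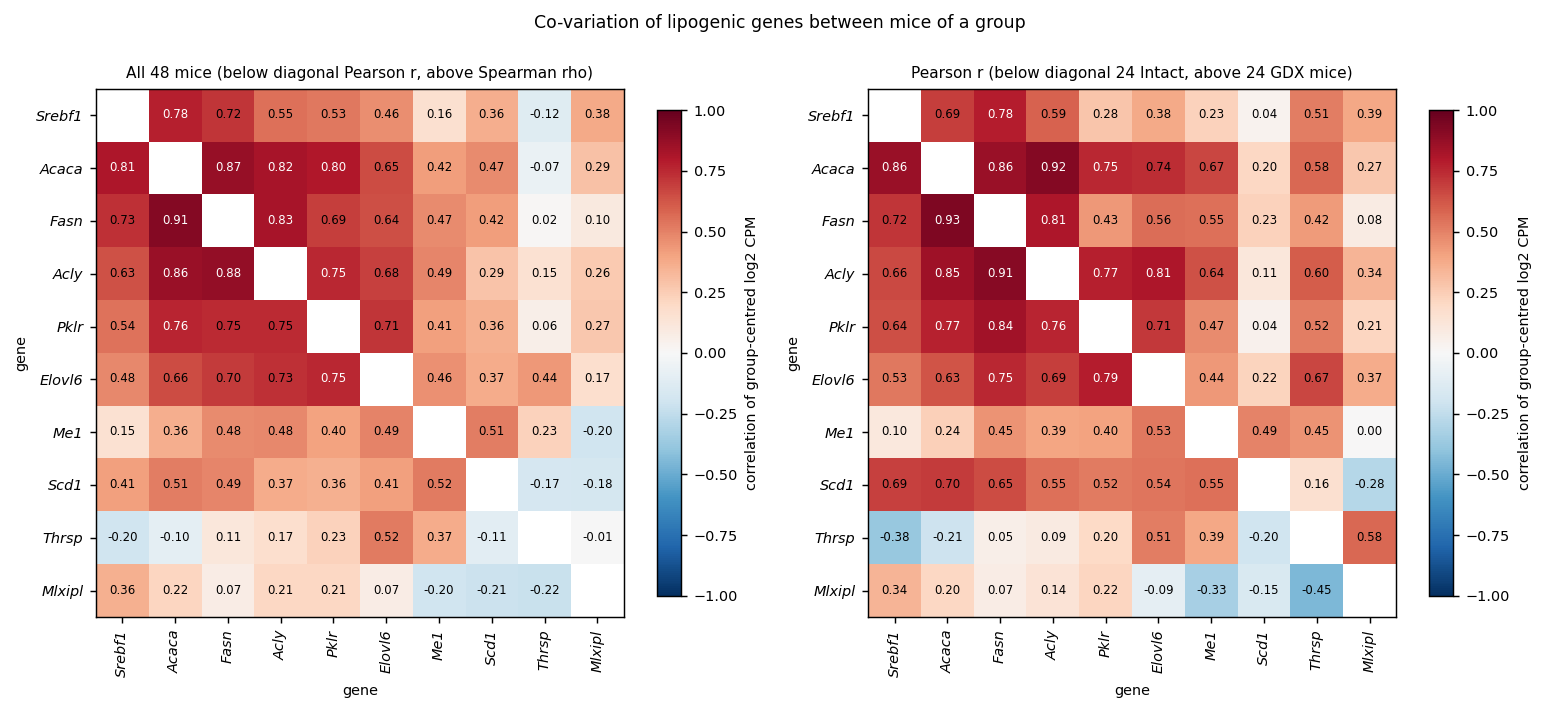
Correlation (colour and printed value) between the group-centred log2 CPM of each pair of the 10 genes, which are listed on both axes, with Pearson r below and Spearman rho above the diagonal for all 48 mice on the left, and Pearson r in 24 Intact (below) and 24 GDX mice (above) on the right. The block of Srebf1, Acaca, Fasn, Acly, Pklr and Elovl6 is positive throughout, and Thrsp and Mlxipl are weakly or negatively correlated with most genes in Intact mice.

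The other members went with this block less closely. Me1 had r of 0.48 with Fasn, 0.48 with Acly, 0.49 with Elovl6 and 0.52 with Scd1 (permutation p from 0.00087 to 0.00279, adjusted 0.00261 to 0.00628). Its rho with the same 4 genes was 0.47, 0.49, 0.46 and 0.51 (adjusted permutation p from 0.00252 to 0.00708), and r without the 2 farthest mice was 0.52, 0.51, 0.42 and 0.38. Its r with Srebf1 was 0.15 (permutation p = 0.37, adjusted 0.427). Scd1 had its highest r with Me1, followed by Acaca (0.51), and its r with Srebf1 was 0.69 in Intact and 0.04 in GDX mice. Mlxipl passed only with Srebf1 (r = 0.36, rho = 0.38, permutation p = 0.0225 and 0.0162, adjusted 0.0406 and 0.0291), a value that 24.1% of tested genes reached with Srebf1. Thrsp passed only with Elovl6 (r = 0.52, rho = 0.44, permutation p = 0.00383 and 0.00342, adjusted 0.00821 and 0.00733), and r was 0.38 without the 2 farthest mice. Its r with Srebf1 was -0.38 in Intact and 0.51 in GDX mice, and -0.58 in the 12 Ov Intact mice, and its r with Mlxipl was -0.45 in Intact and 0.58 in GDX mice. These within-status values are descriptions, and the difference between them was not tested.

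**Figure D4:**
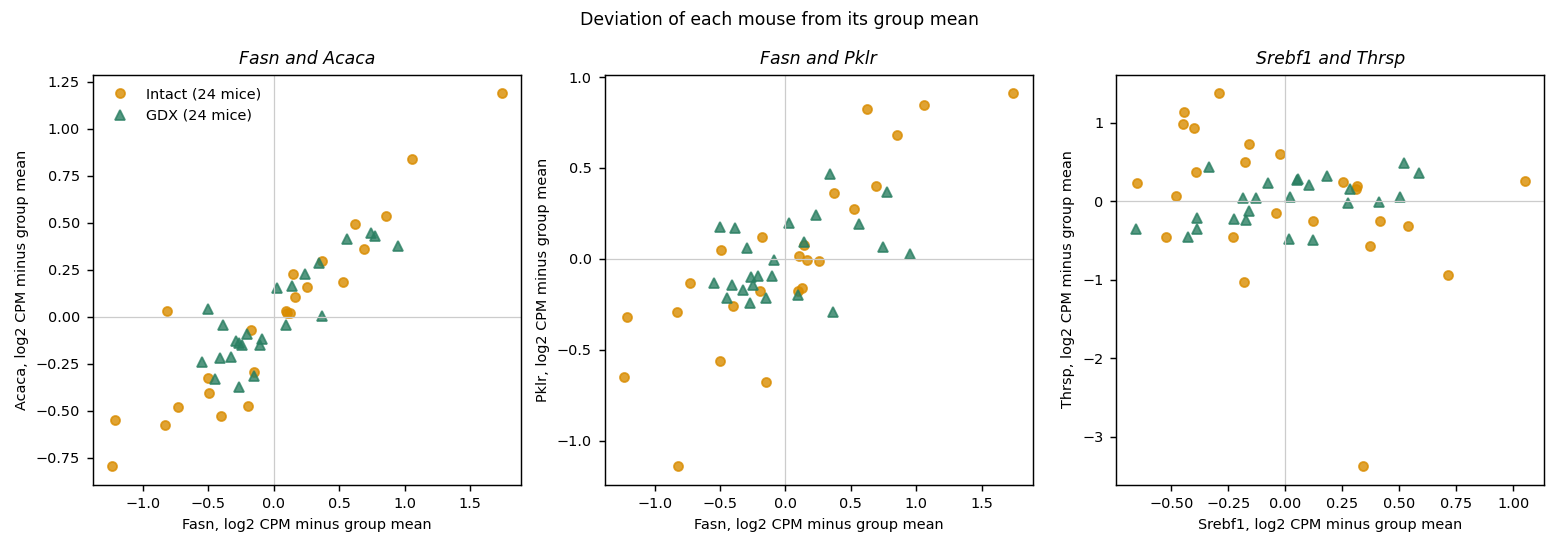
Each mouse's log2 CPM minus its group mean for Fasn against Acaca (left), Fasn against Pklr (middle) and Srebf1 against Thrsp (right), with orange circles for 24 Intact and green triangles for 24 GDX mice. Fasn and Acaca follow a line (r = 0.91), Fasn and Pklr follow it more loosely (r = 0.75), and Thrsp does not rise with Srebf1 in Intact mice (r = -0.38).

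The spread between mice of a group was larger in Intact than in GDX mice, which were different mice with different times on the diet. The within-group SD of log2 CPM was 1.02 in Intact and 0.32 in GDX mice for Thrsp, 0.77 and 0.46 for Fasn, 0.55 and 0.22 for Pklr, and 0.79 and 0.76 for Scd1. All 10 genes had the larger SD in Intact mice, as did 88.7% of all tested genes, with medians of 0.40 and 0.21 over all genes. In Intact mice 3.30% of tested genes varied more than Thrsp, but its SD rested on XX Ov Intact mouse 4 and was 0.62 without it, with 23.1% of genes above (an alternative chosen after seeing the data). In GDX mice 3.75% of genes varied more than Scd1. The plot of paired deviations shows the same, with Intact mice reaching farther along the line of Fasn and Acaca.

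Single mice stood at the ends of several genes at once. XY Te Intact mouse 5 had the highest value of its group for 7 of the 10 genes (Fasn at 546 CPM, Acaca at 111, Srebf1 at 286) and the lowest for Mlxipl. XY Te GDX mouse 4 was highest for 8 and XY Ov GDX mouse 6 for 7 of the 10. XY Ov Intact mouse 5 was lowest for 7, with Fasn at 57.8 and Acaca at 31.0 CPM. XX Ov Intact mouse 4 was lowest for 6, including Thrsp at 25.0 CPM beside 208 to 671 CPM in the other 5 mice, and was at the same time highest for Mlxipl at 289 CPM. The mean of the 10 scaled deviations, which gives these mice their place, had r = 0.23 with the log2 TMM factor, 0.15 with the log2 number of reads on genes, 0.22 with the summed hepatocyte markers, -0.31 with those of Kupffer cells, -0.35 with those of neutrophils, -0.27 with those of lymphocytes, 0.29 with those of endothelial cells and -0.51 with the surrogate variable, over 48 mice centred on their groups. The part of these measures in the co-variation was not tested.

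Outside the 10 genes, those most like the members were ranked by their r with the mean of the members' scaled deviations over the 48 mice. The 8 highest were Gpam (r = 0.82), the glycerol-3-phosphate acyltransferase of triglyceride synthesis, Aacs (0.82), an acetoacetyl-CoA synthetase, the gene listed only as ENSMUSG00000111942 (0.78), Acacb (0.77), the glycogen branching enzyme Gbe1 (0.77), Secisbp2l (0.76), the pyruvate dehydrogenase kinase Pdk1 (0.76) and Cyb5r3 (0.75), a cytochrome b5 reductase. In Intact and GDX mice taken apart, r was 0.84 and 0.77 for Gpam, 0.87 and 0.69 for Aacs and 0.76 and 0.81 for ENSMUSG00000111942. It was 0.81 and 0.68 for Gbe1 and 0.82 and 0.59 for Pdk1. For Acacb it was 0.88 and 0.48, for Secisbp2l 0.86 and 0.49 and for Cyb5r3 0.82 and 0.54. Of 15404 tested genes outside the members, 37 had an r of at least 0.7 over the 48 mice, and the median was 0.0054. Of the members themselves, Fasn (0.90), Acly (0.90) and Acaca (0.89) were closest to the mean, which contains them, and Thrsp (0.26) and Mlxipl (0.22) farthest.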

How the data were processed

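Liver RNA of 48 mice was sequenced as 1 mRNA library (KAPA mRNA HyperPrep) per mouse. The authors aligned reads to GRCm39 with STAR 2.7.10a and deposited raw read counts per gene, with 4 summary lines of reads not given to a gene (25.5% to 42.3% of a library), which were left out. Their annotation release and strand setting are not given in the sources used here. The authors tested with DESeq2 1.36.0. Total counts ranged from 13071874 to 20045141 per mouse, so that the lowest member count of 417 carries little counting error. Intervals cover the spread between mice, and 3 counts, the limit of a count of 0, came to 0.150 to 0.230 CPM.

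Groups were taken from genotype and treatment labels. Counts were tested with edgeR 4.0.16 (R 4.3.3; TMM, robust quasi-likelihood test, 8 group means, all 48 mice) on 15414 genes, with Benjamini-Hochberg adjustment over all of them and 95% intervals. Correlations used log2 CPM (prior count 1) minus the group mean, with 100000 permutations within groups. Both steps were tested on simulated data. Levels per kb used union exon lengths of an NCBIM37 annotation and are approximate, and no coordinate of that annotation is given. Symbols were matched for 31020 gene identifiers and for all 106 listed genes. Promoters came from RefSeq (GRCm38.p6), another build than that of the counts.

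The text names the 10 members, the 2 called genes of each list with the largest log2 fold change in each of the 4 main comparisons, and the 8 genes most like the members, except 1 gene that is not reported here. Other lists were markers of hepatocytes, adipocytes, Kupffer cells, neutrophils, lymphocytes, stellate cells, endothelial cells and cholangiocytes. Members and lists were chosen with earlier results of these data known. Alternatives were DESeq2 size factors, library totals, keeping every gene with a count, keeping those with 10 counts or more in each mouse, 1 surrogate variable (sva 3.50.0), the compared mice only, DESeq2 1.42.0, 47 mice (without XX Te Intact mouse 5, which has no value in 1 of the study's figure data) and each mouse left out in turn.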

Additional observations from a re-analysis of the deposited data

Results flagged for a closer look

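In 5 of the 80 sets of 6 values (10 genes in 8 groups), the end value lay farther from its neighbour than Dixon's 95% critical value for 6 values allows, and chance alone would flag about 4. Fasn in XX Te Intact mouse 5 was 108 CPM, with 267 to 361 CPM in the other 5 mice. Acaca in the same mouse was 46.6 CPM, with 69.0 to 83.6 CPM in the others. Elovl6 in XX Ov Intact mouse 4 was 57.8 CPM, with 108 to 136 CPM in the others. Thrsp in that mouse was 25.0 CPM, with 208 to 671 CPM in the others. Me1 in XX Ov GDX mouse 4 was 224 CPM, above the 142 to 168 CPM of the others, and this mouse was also the highest of its group for Fasn, Acaca, Acly and Pklr.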

How the results depend on the processing

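Of 7260 values of single members under the alternatives, 7174 kept their side of the threshold, 33 lost a call and 53 gained one. Of the called values 0 changed direction, and a change of sign in members that were not called was not counted. The number of members called moved by over 1.5 times in the following cases, and the cause was not tested. The gonadal effect had 1 member called (Mlxipl) and 0 with library totals, with no filter beyond 1 count and with the compared mice only. The chromosomal effect had 3 and, with 1 surrogate variable, 7, with Srebf1, Fasn, Acly and Scd1 added. XX against XY in Ov Intact mice had 1 (Me1) and 0 with DESeq2 size factors, library totals, no filter, at least 10 counts in every mouse and the compared mice only. XX against XY had 1 in Ov GDX and 1 in Te GDX mice, and in each 2 with 1 surrogate variable and 3 with the compared mice only. The number of called members was 7 to 8 for the ovariectomy and for the castration effect under these alternatives, 6 to 7 for ovariectomy in XX and 6 to 8 in XY mice. The called members were not always the same, since with 1 surrogate variable ovariectomy lost Srebf1 and Mlxipl and gained Scd1, and in XY mice lost Fasn and gained Scd1.

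Leaving out single mice gave 0 to 1 called members for the gonadal effect, 3 to 7 for the chromosomal effect, 7 to 9 for ovariectomy and 7 to 8 for castration. It gave 0 to 1 for XX against XY in Ov Intact, 1 to 2 in Ov GDX, 0 to 2 in Te Intact and 1 to 2 in Te GDX mice, 6 to 7 for ovariectomy in XX, 6 to 9 in XY, and 0 to 0 for the former gonad effect after GDX, for ovariectomy by chromosomes and for ovariectomy minus castration. Me1 in Ov Intact mice lost its call without XX Ov Intact mouse 1, 2, 3, 5 or 6, XY Ov Intact mouse 3, 4, 5 or 6, XY Te Intact mouse 3 or 6, XX Ov GDX mouse 1, XY Ov GDX mouse 2 or XY Te GDX mouse 2 (adjusted p from 0.0501 to 0.176). Scd1 gained a chromosomal call without XX Ov Intact mouse 2, XX Te Intact mouse 5, XX Te GDX mouse 5, XY Ov Intact mouse 1 or 2, XY Te Intact mouse 5, XY Ov GDX mouse 1 or 6 or XY Te GDX mouse 4 (log2 difference 0.51 to 0.63). Thrsp in Ov GDX mice passed without XX Ov Intact mouse 1, 3 or 4, XY Ov Intact mouse 1 or XX Ov GDX mouse 5 (0.96 to 1.04). Without XX Ov Intact mouse 4 it also passed in Te GDX mice (0.79) and for ovariectomy in XY mice (-0.68). Without XY Ov Intact mouse 1, ovariectomy in XY mice was called for Srebf1 (0.61), Mlxipl (0.40) and Thrsp (-0.82), and Mlxipl also passed there without XY Te Intact mouse 3 or XX Ov Intact mouse 6 (0.31), and in XX mice without XX Ov Intact mouse 4 (0.36) or 5 (0.34).

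With 1 surrogate variable, ovariectomy in XY mice gave 0.56 for Acaca, 0.46 for Acly and 0.60 for Pklr, all still called. The number of positive pairs of genes was 39 and ranged from 36 to 44 over 7 alternatives. Among the 29 pairs that passed, only Acaca and Me1 turned, to r = -0.16 in the 12 Ov Intact mice. Pairs that did not pass also changed sign, such as Srebf1 and Thrsp (r = -0.20 over 48 mice and 0.51 in GDX mice). With 6 mice per group, the intervals given beside members that did not pass show how large a difference may have been missed.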
